A study of Mus musculus with 29 samples.

Results

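Microglia of the young adult mouse brain were compared between day 14 after stroke and sham surgery, across all genes. A cell was counted as a microglial cell where the authors' deposited cell table gives it the parent class Mg, and its counts were summed per library. This gave 16044 microglia, 10874 in 4 sham libraries and 5170 in 4 stroke day 14 libraries, of 28446 cells in these 8 libraries. The whole series holds 24707 microglia among 106977 cells in 29 libraries. All mice in the 8 libraries were male C57BL/6J mice aged 8 to 10 weeks. Stroke was induced by transient middle cerebral artery occlusion. Each library pools 4 to 5 hemispheres, so that p-values measure the spread between pools and not between mice. Sham brains were collected at day 2 only, so the effect of stroke and the time since surgery cannot be told apart in the comparison of day 14 with sham. The cells of every library, sham included, were dissociated with papain in the presence of actinomycin D, a transcription inhibitor, and of blockers of the P2X7 and NMDA receptors. CD45-high leukocytes, microglia and endothelial cells were then sorted and sequenced by Drop-seq, a droplet method that counts transcripts from their 3′ end.

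Microglia are the resident macrophages of the brain. In the undisturbed brain they keep a set of sensing receptors and transcription factors such as P2ry12, Tmem119 and Sall1. After injury, demyelination or in models of neurodegeneration they can take up a state marked by Apoe, Spp1, Lpl, Cst7, Clec7a and Itgax, in which genes of lipid handling, lysosomes and phagocytosis are raised, and another marked by genes that interferons induce. Weeks after a stroke, microglia surround and clear the infarcted tissue, which is rich in myelin lipid.

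The microglial sums held 924686 to 1793310 counts per sham library and 1041082 to 2154536 per day 14 library. Levels are given as CPM, the counts scaled to a library of 1000000 counts after TMM normalisation, in the order of replicates 1 to 4. Median counts per microglial cell ran from 330 to 648 in sham and from 433 to 2042 at day 14, where replicates 1 and 3 were deepest. The highest mitochondrial share of any cell was under 10% in sham replicate 1 and day 14 replicates 1 and 2, and over 17% in the other 5. The labels name no batch, and whether these 2 sets differ in preparation or in the filter on cells is not given in the sources used here. The deposited cell counts are fractional, and after rounding each value up the sums kept 87.2 to 96.9% of the rounded-up total, so that genes with few counts can be listed at or near 0. Day 2 replicate 3, which enters the comparison of day 14 with sham through the filter on genes and the spread, holds 58 microglia and kept 20.4%, with 52 of its 58 cells under 0.5 of their rounded-up counts. No pair of the 8 libraries shared more than 3 cell barcodes. The 10 microglial markers summed to 19242 to 25085 CPM in sham and 17906 to 24409.7 CPM at day 14, which overlap, with none at 0. In sums over cells, fewer cells that express a gene and less RNA of it per cell cannot be told apart.

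At day 14, 1544 of 10145 genes passed an adjusted p of 0.05 against sham (15.2%), and 1071 of them were higher (10.6%) and 473 lower (4.66%). The test was edgeR's quasi-likelihood test, with Benjamini-Hochberg adjustment over all genes tested. The called genes that were higher had a median log2 fold change of 1.82 and those that were lower −1.24, and 490 were at least 4-fold higher against 70 at least 4-fold lower. In 2206 genes (21.7%) no day 14 library overlapped a sham library, with 1209 higher (11.9%) and 997 lower (9.83%), and 1289 genes were both called and apart. Scaling moves the balance: with library size in place of TMM normalisation, the median of all genes shifts from −0.04 to −0.49 on the log2 scale and the calls become 670 higher and 2755 lower. Leaving out sham replicate 2, 3 or 4 or day 14 replicate 1 lowered the calls to 874, 842, 791 and 894, and leaving out day 14 replicate 4 raised them to 2573. Within the 5 libraries over 17%, fitted together with day 2 replicate 4, 1110 genes were called. The set under 10%, fitted together with day 2 replicates 1 and 2, has 1 sham library, so its calls are not counted.

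**Figure D1:**
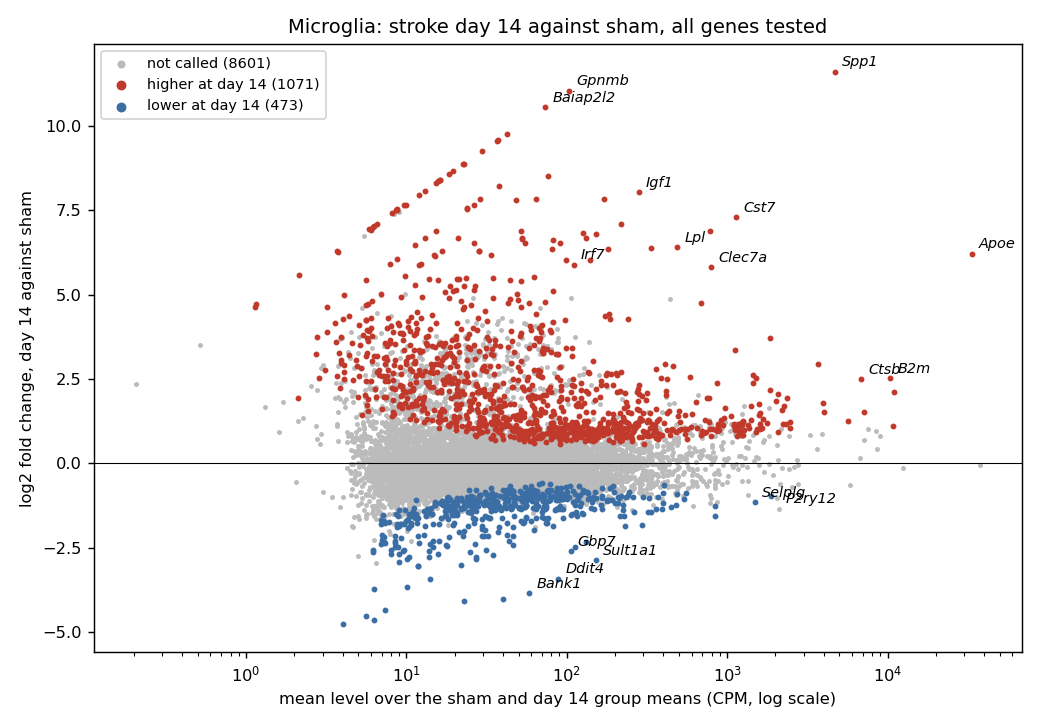
Log2 fold change of day 14 against sham (vertical axis) against the mean level of the 2 groups (horizontal axis, CPM on a log scale) for 10145 genes, with called genes in red (1071 higher) and blue (473 lower). Spp1, Apoe, Cst7 and Igf1 lie far above the cloud, and Bank1, Ddit4 and Sult1a1 lie at its lower edge.

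Genes of the lipid-associated state made up the clearest group. Of 33 tested members 32 were higher and none was lower (97.0% called, beside 15.2% of all genes). Beside 11.9% of all genes, every day 14 library lay above every sham library in all 33. Their median log2 fold change was 6.21 (5.81 with the 6 members at 0 in sham set at their lower bound), beside −0.04 over all genes. This list was taken from a state described in other disease models, and earlier results of these data were known when it was drawn up. Apoe, which encodes the lipoprotein that carries cholesterol and phospholipid out of glia, was at 877, 1284, 656 and 769 CPM in sham and 64146, 65835, 92906 and 42255 CPM at day 14. All 4 day 14 libraries lay far above every sham library. The log2 fold change was 6.21 ± 0.62 (SE), adjusted p = 1.7e-05, and Apoe alone held 3.56 to 7.23% of the microglial counts of a day 14 library against 0.0719 to 0.133% in sham. Apoc1 and Apoc4, apolipoproteins of the same gene cluster, rose with it. Apoc1 was at 1.53, 7.53, 0 and 2.12 CPM in sham and 262, 398, 799 and 269.8 CPM at day 14 (log2 fold change 7.08 ± 0.64).

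Spp1 encodes osteopontin, a secreted matrix protein that binds integrins and CD44. It was at 4.08, 3.23, 0 and 3.54 CPM in sham and 5831, 6053, 22251 and 3441 CPM at day 14, with a log2 fold change of 11.61 ± 0.93 (SE), adjusted p = 3.1e-06. Replicate 3 at day 14 stood well above the other 3, and no library overlapped. Igf1, a growth factor for neurons and oligodendrocytes, went from 1.02, 3.77, 0 and 2.83 CPM to 501, 413, 899 and 428 CPM (log2 fold change 8.03 ± 0.53 (SE), adjusted p = 1.8e-06). Csf1, the ligand of the CSF1 receptor on which microglia depend, rose as well, with 12.3, 26.9, 37.5 and 19.1 CPM in sham and 792, 239, 432 and 363 CPM at day 14. The lowest day 14 library of Csf1 was far above the highest sham library.

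Cst7 encodes cystatin F, an inhibitor of lysosomal cysteine proteases, and stood at 8.17, 22.6, 12.8 and 13.5 CPM in sham and 2376, 2095, 2954 and 1609 CPM at day 14 (log2 fold change 7.29 ± 0.51 (SE), adjusted p = 1.8e-06). Lpl, lipoprotein lipase, was at 17.4, 8.61, 6.9 and 11.3 CPM and 1169, 951, 1287 and 468 CPM (log2 fold change 6.41 ± 0.65 (SE), adjusted p = 2.0e-05). Clec7a, the beta-glucan receptor dectin-1, was at 11.7, 31.7, 25.6 and 41.8 CPM and 1458, 1025, 1587 and 2149 CPM (log2 fold change 5.81 ± 0.67 (SE), adjusted p = 6.9e-05). Groups of these 3 genes did not overlap. Itgax, the integrin CD11c, reached 93.6, 92.7, 90.0 and 71.8 CPM from at most 2.83 CPM in a sham library, a log2 fold change of 5.44 ± 0.45. Axl, a receptor tyrosine kinase for clearance of dying cells, reached 148, 93.9, 123 and 52.1 CPM from 0 to 2.55 CPM. The tetraspanins Cd9 and Cd63 and the fatty acid binding protein Fabp5 also rose, by 2.54 ± 0.38, 2.37 ± 0.32 and 6.79 ± 0.47 on the log2 scale.

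Several members were not counted in sham at all. Gpnmb, a glycoprotein of lysosomes, Baiap2l2, Apoc4 and Cxcl13 were at 0 in all 4 sham libraries, also after rounding up. Set against a floor of 3 counts over the sham group, their day 14 levels were at least 424-fold, 311-fold, 174-fold and 134-fold higher. Baiap2l2 was the most even of them over the day 14 libraries, at 185, 151, 141 and 107 CPM. Actr3b, which encodes a subunit related to the Arp2/3 actin complex and is outside the list, had the same pattern, at 58.8, 39.2, 34.7 and 47.3 CPM and at least 97.7-fold higher. Ch25h, which makes 25-hydroxycholesterol, had 2 sham counts in all and 163, 119, 235 and 91.5 CPM at day 14. The ratio over the summed groups was 484 with a 95% counting interval of 134 to 4007. Trem2, the lipid receptor of this state, and its adaptor Tyrobp are expressed by all microglia and changed less. Trem2 was at 1704, 1655, 1302 and 1249 CPM and 3681, 3326, 4055 and 2827 CPM, without overlap, and its log2 fold change was 1.23 ± 0.35 (SE), adjusted p = 0.03. The call of Trem2 was lost when any 1 of 6 libraries was left out and with counts rounded up (adjusted p = 0.11). Tyrobp rose by 1.51 ± 0.30 (SE), adjusted p = 0.0044 (adjusted p = 0.06 with counts rounded up).

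**Figure D2:**
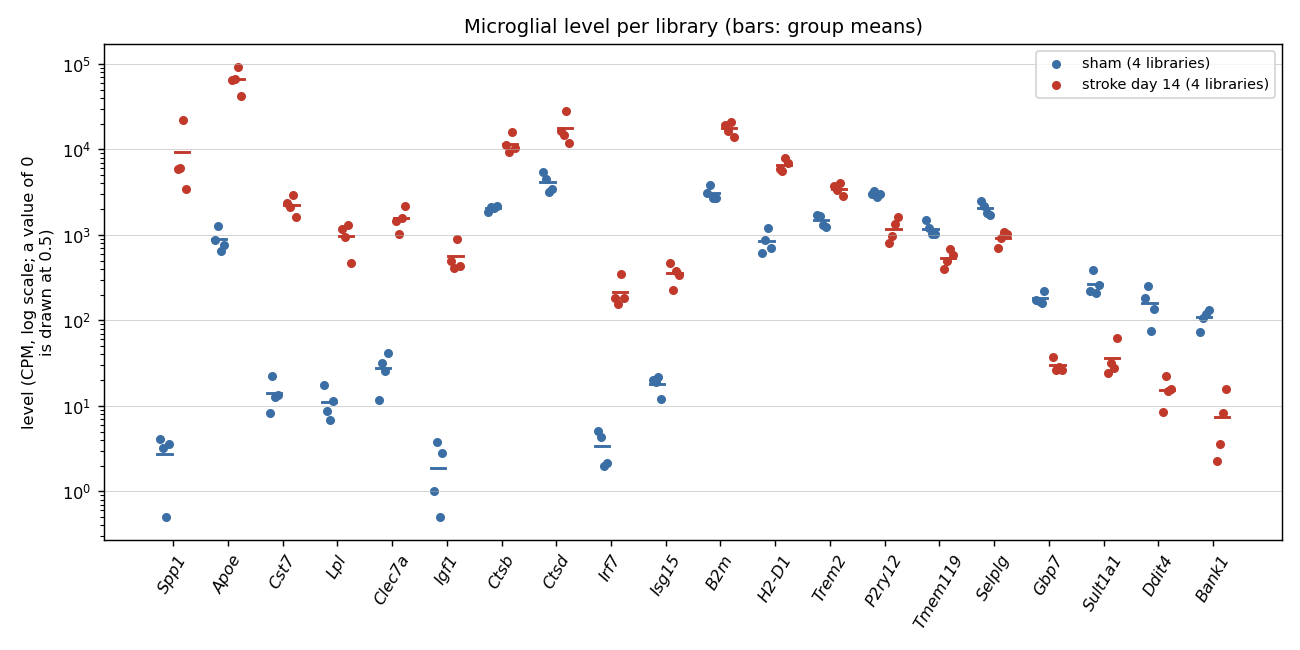
Level of 20 genes in each library (CPM, log scale, with 0 drawn at 0.5), sham in blue and stroke day 14 in red, with bars at the group means of 4 libraries. Spp1, Apoe, Cst7, Lpl, Clec7a and Igf1 are separated by far more than the spread between libraries, and P2ry12, Tmem119, Gbp7, Sult1a1, Ddit4 and Bank1 are lower in all 4 day 14 libraries.

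Lysosomal genes rose broadly but by less. Of 30 tested members 19 were higher and none was lower (63.3% called, beside 15.2% of all genes). The median log2 fold change of the list was 1.06. Ctsb, cathepsin B, was at 1829, 2124, 2079 and 2203 CPM in sham and 11092, 9292, 15769 and 10229 CPM at day 14 (log2 fold change 2.49 ± 0.31 (SE), adjusted p = 0.00013). Ctsd, the aspartic protease cathepsin D, was at 5395, 4478, 3160.4 and 3408 CPM and 16416, 14819.8, 27902 and 11887 CPM (log2 fold change 2.11 ± 0.39 (SE), adjusted p = 0.0029). With counts rounded up its adjusted p was 0.069. Npc2, which hands cholesterol to NPC1 for its export from the lysosome, rose by 1.93 ± 0.24 and cathepsin Z (Ctsz) by 1.86 ± 0.33. In each of these 4 genes every day 14 library was above every sham library. Called members with smaller changes included Lamp1, Grn, Lipa and the proton pump subunits Atp6v1a and Atp6v1b2. The number of members higher ran from 16 to 22 when 1 library was left out and was 15 with counts rounded up.

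Genes that move or store cholesterol and fatty acids were in part higher, with a median of 1.22. Beside 15.2% of all genes called, 50% of this list were called: 9 of 18 rose and none fell. Besides Apoe and Lpl these were the fatty acid binding protein Fabp3, the lipid droplet coat Plin2, the scavenger receptors Cd36, Msr1 and Scarb1, Hilpda, and the cholesterol esterifying enzyme Soat1. Plin2 was at 15.3, 18.3, 28.6 and 24.8 CPM and 201, 149.8, 250.1 and 174 CPM (log2 fold change 3.17 ± 0.36). Abca1, the cholesterol exporter, was at 201, 165, 154 and 155 CPM and 341, 248, 242 and 256 CPM. Its libraries did not overlap, but it did not pass the test (adjusted p = 0.14). None of the 13 tested genes of cholesterol synthesis was called, and their median was 0.19.

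Genes of the interferon response were the second large group. Of 35 tested members 29 were higher and 1 was lower (85.7% called, beside 15.2% of all genes). The median log2 fold change of the list was 4.29. Irf7, the transcription factor that amplifies type I interferon, was at 5.1, 4.3, 1.97 and 2.12 CPM in sham and 183, 155, 352 and 181 CPM at day 14 (log2 fold change 5.89 ± 0.40 (SE), adjusted p = 1.8e-06). Isg15, a ubiquitin-like modifier, was at 19.9, 18.8, 21.7 and 12 CPM and 472, 225, 377 and 342 CPM (log2 fold change 4.29 ± 0.35 (SE), adjusted p = 3.5e-06). Ifit3, which binds foreign RNA with its relatives, was at 6.64, 2.15, 2.96 and 6.37 CPM and 168, 109, 229 and 135 CPM (log2 fold change 5.10 ± 0.42 (SE), adjusted p = 3.8e-06). No library of these 3 genes overlapped. Bst2, or tetherin, rose by 2.87 ± 0.28. Oasl2 and Rsad2 had 3 and 2 counts in the summed sham libraries, and their ratios were 275 (95% counting interval 93.8 to 1339) and 323 (88.8 to 2670.3). Ifitm3 was called (log2 fold change 6.38 ± 0.94), but its sham counts depended on the fractional values, with 55 counts as deposited and 168 rounded up, where the log2 fold change was 4.80. Gbp7, an interferon-inducible GTPase, was the member that fell. It was at 174, 169, 161 and 222 CPM in sham and 37.7, 26.2, 28.9 and 26 CPM at day 14, with no overlap and a log2 fold change of −2.60 ± 0.32 (SE), adjusted p = 0.0001.

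The promoters of these genes were read for the core of the interferon-stimulated response element, which is GAAA, any 2 bases and GAAA, on either strand, in 250 bases before to 50 bases after the start site (RefSeq, GRCm38.p6). It was found in 18 of the 27 interferon genes with a promoter in the table (66.7%) and in 13 of the 21 of those that were higher, against 3.99% of 27025 genes. The 250 bases before the start are shown for 2 interferon genes that rose, for Gbp7, which fell and holds the same motif, and for B2m, the MHC class I light chain, with every match in capitals. They are Isg15 (chr4:156200819-156201068, minus strand), Ifit3 (chr19:34583279-34583528, plus strand), Gbp7 (chr3:142530086-142530335, plus strand) and B2m (chr2:122147437-122147686, plus strand), each written 5′ to 3′ on the gene's strand.
Isg15: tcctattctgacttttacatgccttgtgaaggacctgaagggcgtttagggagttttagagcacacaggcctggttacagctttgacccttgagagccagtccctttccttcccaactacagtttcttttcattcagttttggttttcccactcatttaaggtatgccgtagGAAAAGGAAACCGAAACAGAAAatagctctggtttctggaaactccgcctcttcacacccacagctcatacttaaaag
Ifit3: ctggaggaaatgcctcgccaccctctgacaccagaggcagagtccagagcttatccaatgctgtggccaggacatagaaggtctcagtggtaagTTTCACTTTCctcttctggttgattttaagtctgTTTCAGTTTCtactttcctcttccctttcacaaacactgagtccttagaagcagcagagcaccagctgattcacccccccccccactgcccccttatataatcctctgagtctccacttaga
Gbp7: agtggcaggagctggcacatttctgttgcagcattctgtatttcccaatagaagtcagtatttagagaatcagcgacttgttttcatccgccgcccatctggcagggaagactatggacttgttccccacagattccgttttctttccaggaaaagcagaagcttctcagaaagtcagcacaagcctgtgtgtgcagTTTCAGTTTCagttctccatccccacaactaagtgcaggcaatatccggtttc
B2m: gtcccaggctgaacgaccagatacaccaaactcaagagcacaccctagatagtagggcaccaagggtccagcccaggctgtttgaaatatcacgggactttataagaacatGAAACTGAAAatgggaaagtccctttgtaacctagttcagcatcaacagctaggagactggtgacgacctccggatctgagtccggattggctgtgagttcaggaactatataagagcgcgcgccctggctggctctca
Isg15 holds 3 overlapping matches that begin 78 to 66 bases before the start, and Ifit3 holds 2 on the reverse strand, at 156 and 122 bases. Gbp7 has 1 match on the reverse strand at 53 bases and B2m 1 at 139 bases. Among the MHC class I genes 5 of 19 hold the motif (26.3%). The lysosomal element TCACGTGA was searched in the same way and found in 5 of 22 lysosomal genes (22.7%) against 1.12% of the same 27025 genes. Ctsd (chr7:142387828-142388077, minus strand) is shown as the example among those 5 whose level is described above.
Ctsd: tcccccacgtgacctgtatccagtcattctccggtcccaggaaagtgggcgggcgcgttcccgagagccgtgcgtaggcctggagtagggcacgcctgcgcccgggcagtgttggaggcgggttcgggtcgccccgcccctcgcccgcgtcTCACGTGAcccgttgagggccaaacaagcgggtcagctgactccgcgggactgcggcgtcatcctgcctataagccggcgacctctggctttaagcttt
Its match begins 99 bases before the start. A match describes the letters only, and no binding was measured here.

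MHC class I genes, which present peptides to CD8 T cells, rose together, with a median of 1.21. Of 21 members 15 were higher and none was lower (71.4% called, beside 15.2% of all genes). B2m, the light chain shared by all class I molecules, was at 3084, 3822, 2728 and 2695 CPM in sham and 19419.7, 16306, 21096 and 13829 CPM at day 14 (log2 fold change 2.52 ± 0.31 (SE), adjusted p = 0.00011). The heavy chain H2-D1 was at 612, 869, 1212 and 709.7 CPM and 5818, 5628, 7944 and 6831 CPM (log2 fold change 2.95 ± 0.31 (SE), adjusted p = 2.8e-05). H2-K1, the other classical heavy chain, rose by 2.19 ± 0.29 (SE), adjusted p = 0.00019. For B2m, H2-D1 and H2-K1 each day 14 library was above each sham library. Tap1, a subunit of the pump that loads peptides, rose by 2.26 ± 0.37. H2-Q7 and H2-Q6 rose by 6.01 ± 0.36 and 3.96 ± 0.53, but they are near-identical copies between which reads cannot be split with certainty.

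MHC class II genes, which present to CD4 T cells, were uneven. Of 9 tested members only H2-Ob passed (31.1, 22.1, 20.7 and 24.1 CPM and 55.4, 49.9, 52 and 39.4 CPM), and the median was 1.00. This share called (11.1%) is below that of all genes (15.2%). The call of H2-Ob was lost with library size scaling and without sham replicate 2, 3 or 4 (adjusted p from 0.052 to 0.11). Cd74, the invariant chain, was at 38.8, 2.15, 20.7 and 0 CPM in sham and 377, 401, 60.2 and 0 CPM at day 14. Day 14 replicates 1 and 2 were high and replicate 4 was at 0, and the call was missed (log2 fold change 3.74 ± 1.27 (SE), adjusted p = 0.061). Those values depend on how the fractional counts are summed. With each value rounded up, Cd74 had 373 counts in sham and 1865 at day 14, and its log2 fold change was 2.62 with an adjusted p of 4.5e-05. H2-Aa and H2-Ab1 changed in the same way, to log2 fold changes of 2.64 (adjusted p = 0.00036) and 2.45 (adjusted p = 0.00021), and 6 members were then higher.

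Of 15 chemokines tested, which attract leukocytes, 11 were higher (73.3% called, beside 15.2% of all genes), with a median of 2.50. Ccl5, which attracts T cells, was at 4.08, 0, 0.986 and 0 CPM and 237, 351, 559 and 219 CPM (log2 fold change 7.83 ± 0.75 (SE), adjusted p = 1.4e-05). Over the 8 libraries, another cell type held Ccl5 at over 10 times the microglial level, and the part of such cells in this rise was not tested. Ccl12, a ligand of CCR2, was at 147, 219, 191 and 115 CPM and 1042, 583, 1329 and 1039.6 CPM (log2 fold change 2.57 ± 0.59 (SE), adjusted p = 0.011). Cxcl16 rose by 2.45 ± 0.29 and Cxcl10, which the CXCR3 of T cells binds, by 4.36 ± 0.82. Groups of these 4 did not overlap. Cxcl14 rose from 1 sham count in all to 55.4, 44, 94.9 and 36.3 CPM. The macrophage inflammatory proteins were variable at day 14. Ccl4 was at 499, 877, 1479 and 341 CPM and 7019, 1032, 2180.5 and 3164 CPM, so the groups overlapped, and its log2 fold change of 2.07 ± 0.65 (SE), adjusted p = 0.046 was lost without any 1 of 7 libraries. Ccl3 was at 455, 719, 977 and 224 CPM and 3507, 719, 1671 and 1876 CPM and was not called (adjusted p = 0.057). Ccl2 was at 94.4, 111, 79.8 and 70.8 CPM and 182, 88, 248 and 174 CPM (adjusted p = 0.14).

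Among 20 cytokines and growth factors, with a median of 1.75 and 55% called (beside 15.2% of all genes), 10 were higher and 1 lower. Beside Spp1, Igf1 and Csf1 these included the interleukin 1 receptor antagonist Il1rn, Gdf15, Osm, Pdgfa and Mif, and Hbegf was the member that fell. Tnf was at 58.2, 57, 82.8 and 22 CPM and 595, 64.2, 239 and 195 CPM. Its groups overlapped, and its call (log2 fold change 2.32 ± 0.70 (SE), adjusted p = 0.04) was lost without any 1 of 7 libraries. Il1b was at 28.6, 1.08, 91.7 and 0 CPM and 2176, 177, 286 and 780.1 CPM, apart but spread over more than 10-fold at day 14, and it just missed the threshold (adjusted p = 0.055). With counts rounded up its log2 fold change was 4.0 (adjusted p = 0.0024). Tgfb1, the factor that maintains microglial identity, was at 186, 134, 187 and 145 CPM and 187, 170, 155 and 177 CPM (log2 fold change 0.08 ± 0.26).

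Complement and Fc receptor genes were higher in 9 of 16 members and lower in none (56.25% called, beside 15.2% of all genes). The list median was 0.79. With counts rounded up 5 were higher, and with library size scaling 5 were higher and 1 lower. The central component C3 had 2 sham counts in all and 32.5, 29.7, 33 and 23.7 CPM at day 14. The summed groups differed 93.6-fold, with a 95% interval from counting of 25.5 to 779.6. C4b was at 4.59, 0.538, 0.986 and 0 CPM and 48.5, 64.2, 42.9 and 20.5 CPM (log2 fold change 4.62 ± 0.70 (SE), adjusted p = 0.00058). C1qa, which starts the classical pathway, was at 6149.8, 6279.7, 3759 and 3826 CPM and 9405, 9986, 14055 and 6776 CPM, apart but not called (adjusted p = 0.3). The Fc receptor Fcgr4 rose by 2.62 ± 0.37 and the shared chain Fcer1g by 1.04 ± 0.28. Without day 14 replicate 1 only 4 members of this list were called. Receptors for microbial patterns and for uptake went both ways, 9 higher and 4 lower of 24 (54.2% called, beside 15.2% of all genes). The median of these receptors was 0.25. Tlr2 was at 66.4, 63.5, 67 and 34.7 CPM and 582, 214, 439 and 267 CPM (log2 fold change 2.70 ± 0.34) and Cd14 and Gas6 were also higher. Clec4a2, an inhibitory lectin, fell from 192, 203, 178 and 186 CPM to 18.3, 32.1, 29.7 and 56 CPM (log2 fold change −2.48 ± 0.29), and Clec4a3, Tlr4 and Cd300a fell as well. With library size scaling this list had 7 members higher and 8 lower.

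Genes of matrix and adhesion were higher in 11 of 21 members and lower in none (52.4% called, beside 15.2% of all genes). The list median was 2.93. Lgals3, galectin-3, was at 4.08, 0, 4.93 and 0 CPM and 277, 183, 401 and 135 CPM (log2 fold change 6.82 ± 0.80 (SE), adjusted p = 7.3e-05). Vim, the filament protein vimentin, was at 6.13, 0, 1.97 and 0 CPM and 122, 46.4, 71 and 29.2 CPM, and Cd44, Mmp12, Anxa2 and Lgals1 were also higher. Fn1, fibronectin, was at 0 in sham as deposited and at 72.5, 99.9, 91.6 and 30.8 CPM at day 14. Rounding up gave it 20 sham counts and a log2 fold change of 4.71.

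Cell cycle genes were higher in 15 of 28 members and lower in none (53.6% called, beside 15.2% of all genes). The list median was 2.37. Top2a, the topoisomerase of dividing cells, was at 0.51, 0, 8.87 and 3.54 CPM in sham and 38.8, 32.1, 42.1 and 36.3 CPM at day 14 (log2 fold change 3.79 ± 0.64 (SE), adjusted p = 0.0015). Mki67 was at 0, 0, 4.93 and 9.92 CPM and 32.5, 15.5, 30.5 and 48.9 CPM (log2 fold change 3.25 ± 0.87 (SE), adjusted p = 0.024). Both were apart, at levels near the floor in sham. Cdkn1a, which encodes the cell cycle inhibitor p21, rose too, from 54.6, 126, 161 and 53.8 CPM to 631, 277, 305 and 607 CPM. Glycolytic genes were higher in 8 of 14 members (57.1% called, beside 15.2% of all genes), with a median of 1.19. Pkm rose by 2.05 ± 0.28, Pgk1 by 1.98 ± 0.28 and Ldha, which makes lactate, by 1.69 ± 0.34. Without sham replicate 3 only 5 glycolytic genes were called. Of 20 genes of iron, haem and antioxidant defence 6 were higher and 1, the iron exporter Slc40a1, was lower (35% called, beside 15.2% of all genes). Fth1, the heavy chain of ferritin, was at 2798, 4301, 4422 and 3080.5 CPM and 10833, 8737, 11998 and 10775 CPM (log2 fold change 1.54 ± 0.38 (SE), adjusted p = 0.017), and Cybb, the core of the NADPH oxidase, rose by 4.84 ± 0.74. With library size scaling 3 were higher and 4 lower, and without sham replicate 4 only 3 were higher.

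Genes that define the resting microglial identity were mostly lower in value, and 4 of 20 were called (20%, beside 15.2% of all genes). Of these 2 were higher (Trem2 and Tyrobp) and 2 lower (Selplg and Slc2a5), and the list median was −0.52. Without overlap of libraries 10 of the 20 were lower and 5 higher, beside 9.83% lower and 11.9% higher over all genes. P2ry12, the ADP receptor that steers microglial processes, was at 2965, 3289, 2796 and 2982 CPM in sham and 804, 972, 1344 and 1623 CPM at day 14. All 4 day 14 libraries were below all sham libraries, yet the log2 fold change of −1.34 ± 0.60 (SE) did not pass (adjusted p = 0.14). Its adjusted p was 0.0046 without day 2 replicate 3, 0.0055 with the compared groups alone, 0.027 in DESeq2 and 0.029 with library size scaling. Tmem119 was at 1482, 1206, 1015 and 1024 CPM and 402, 489.8, 676 and 586 CPM (adjusted p = 0.12, or 0.0094 without day 2 replicate 3). Cx3cr1, the fractalkine receptor, was at 4058, 2769, 3259 and 3295 CPM and 2132, 2336, 2100.4 and 2145 CPM (adjusted p = 0.53, or 0.049 without that library). Csf1r and the transcription factor Sall1 were apart in the same direction and missed the test (adjusted p = 0.42 and 0.15).

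Selplg, a ligand of P-selectin, fell from 2496, 2194, 1816 and 1697 CPM to 699.9, 915, 1067 and 1012 CPM (log2 fold change −1.15 ± 0.35 (SE), adjusted p = 0.042), without overlap. This call was lost without any 1 of 8 libraries, with the replicate block and with counts rounded up. Slc2a5, a fructose transporter, fell from 221, 141, 140 and 129 CPM to 54.2, 76.1, 79.2 and 57.6 CPM (log2 fold change −1.25 ± 0.31 (SE), adjusted p = 0.016), and was not called without day 14 replicate 1. Over the whole identity list, 7 members were lower and 2 higher without day 2 replicate 3, and 9 lower and 1 higher with library size scaling. Of 32 transcription factors and genes of TGF-beta signalling 4 were higher, namely Rxrg, Bhlhe40, Hif1a and Relb, and Mef2a was lower, a share called (15.6%) near that of all genes (15.2%). Hif1a, the hypoxia factor, was at 59.7, 75.3, 84.8 and 91.4 CPM and 370.5, 245, 372 and 348 CPM (log2 fold change 2.10 ± 0.24 (SE), adjusted p = 5.5e-05). Mef2a was at 702, 1152, 1433 and 1461 CPM and 394, 374, 446 and 783 CPM, with overlap, and a log2 fold change of −1.25 ± 0.32.

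The 12 genes with the lowest log2 fold changes among those called, apart and at 20 CPM or more were of varied function. Bank1, a scaffold of B cell receptor signalling that microglia also transcribe, was at 73.5, 108, 119 and 134 CPM and 2.28, 3.57, 8.25 and 15.8 CPM (log2 fold change −3.84 ± 0.45 (SE), adjusted p = 7.0e-05). Ddit4, an inhibitor of mTORC1 that glucocorticoids and stress induce, was at 184, 249.6, 75.9 and 136 CPM and 8.56, 22.6, 14.9 and 15.8 CPM (log2 fold change −3.42 ± 0.38 (SE), adjusted p = 5.2e-05). Sult1a1, a sulfotransferase, was at 218, 383, 211 and 256 CPM and 24.5, 32.1, 28.1 and 62.3 CPM (log2 fold change −2.86 ± 0.36 (SE), adjusted p = 0.00015). In each of the 3 the highest day 14 library was below the lowest sham library. Siglece, an inhibitory sialic acid receptor, fell in the same manner, from 54.6, 49, 42.4 and 43.2 CPM to 4.57, 7.13, 9.08 and 7.1 CPM (log2 fold change −2.77 ± 0.31). The integrin Itga9 (−2.84 ± 0.38), Serpinf1 (−2.72 ± 0.42), Upk1b (−2.63 ± 0.39), Acvr2b (−2.55 ± 0.53), Rtn1 (−2.42 ± 0.37) and the corepressor Cbfa2t3 (−2.39 ± 0.37) are the others, with Gbp7 and Clec4a2.

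Targets of glucocorticoids and FoxO factors had a median of −1.09, and 53.3% were called, beside 15.2% of all genes. Of 15 members 8 were lower and none was higher. Beside Ddit4 and Sult1a1 these were Fkbp5, Cdkn1c, Tle3, Txnip, Klf7 and Pik3r1. Fkbp5, a chaperone of the glucocorticoid receptor, was at 94.9, 211, 121 and 144 CPM and 45.7, 44, 33 and 64.7 CPM (log2 fold change −1.60 ± 0.39 (SE), adjusted p = 0.014). Tsc22d3, known as Gilz, was at 279.7, 245, 223 and 64.5 CPM and 153, 70.1, 65.2 and 104 CPM, which overlap (adjusted p = 0.11). Without sham replicate 2, 5 members were called. Early response genes, which dissociation can induce, were called in 2 of 24 members, Maff and Gadd45b, both higher, and the list median was 0.57. Fos was at 518, 1827, 2565 and 312 CPM and 4938, 360.2, 1131 and 1686 CPM, Jun at 1475, 4182, 5660.4 and 1299 CPM and 3013, 478, 1187 and 3087 CPM, and Egr1 at 301, 875, 1308 and 183 CPM and 2454, 157, 352 and 789.6 CPM. These 3 were highest in day 14 replicate 1 or sham replicates 2 and 3, and the groups overlapped. Of 7 genes of purine sensing P2rx4 was higher (1.21 ± 0.26) and the ectonucleotidase Entpd1 (CD39) lower (−1.19 ± 0.29). Of 13 checkpoint and costimulation genes 5 were higher, among them Cd52, Lag3 and Cd274, and 2 were lower, Icosl and Cd80. Of 12 genes named for B cell signalling Cd180 was higher and Bank1 lower. The shares called in the B cell signalling (16.7%) and early response (8.33%) lists were near or below that of all genes (15.2%). The share was 28.6% in the purine sensing list, with 1 of 7 called in each direction, and 53.8% in the checkpoint and costimulation list.

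**Figure D3:**
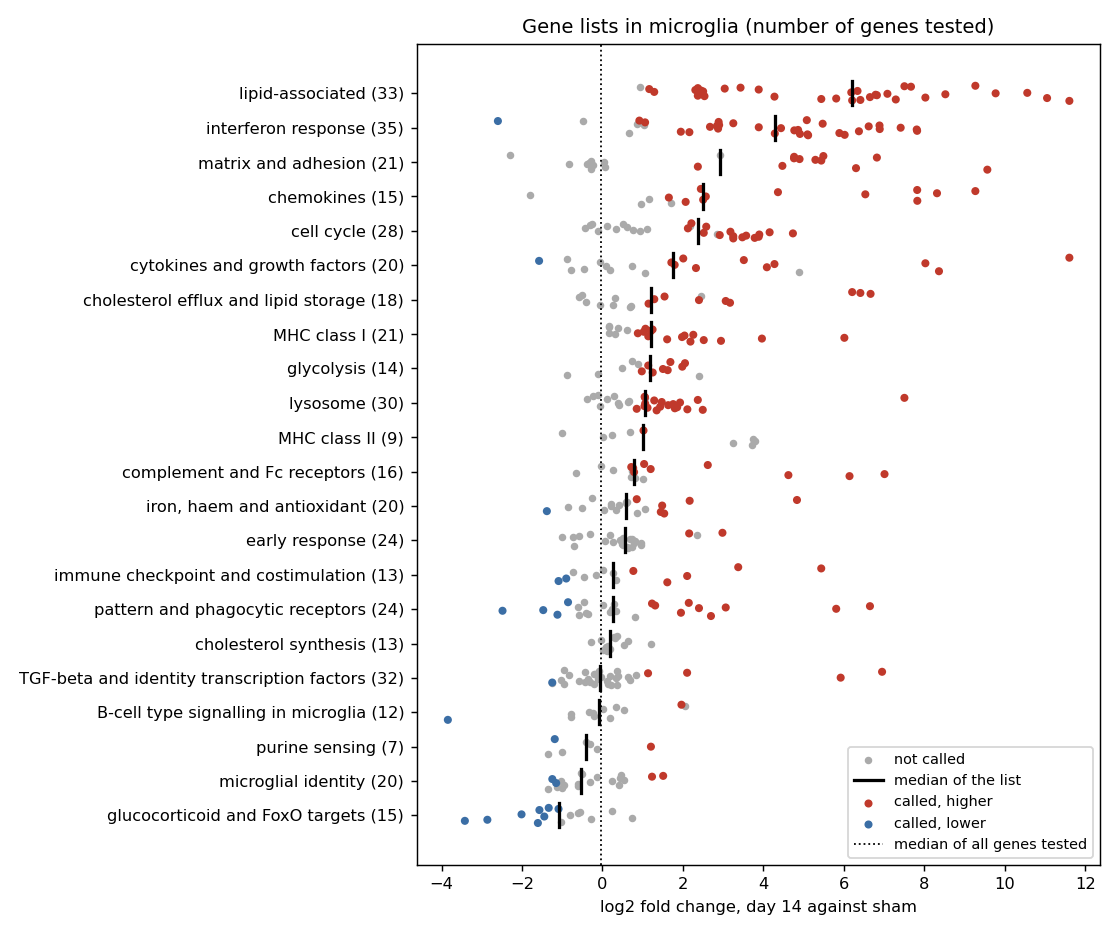
Log2 fold change of every tested member of 22 gene lists (1 row per list, number of genes tested in brackets), with called members in red or blue, others in grey, a black bar at the list median and a dotted line at the median of all genes. The lipid-associated (6.21) and interferon (4.29) medians lie farthest to the right, and the glucocorticoid and FoxO list (−1.09) lies farthest to the left.

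The share of microglia with at least 1 count of a gene was read after each cell was thinned to 300 counts. A change of level in every cell also moves this share by sampling, so it cannot by itself show how a change was spread over cells. Shallower cells were left out, 8.08 to 35% of cells per sham library and 5.86 to 26.5% per day 14 library. Endothelial cells of the same libraries were treated alike, as a level that free RNA can reach for genes they lack. The 75 genes read in this way include those with the largest changes in the summed counts of the same libraries, so that their number past the test is a description. It was 58, 40 higher and 18 lower, each with an adjusted p of 0.037, the smallest this exact two-sided permutation test of 4 against 4 libraries gives here. Cst7 was found in 0.273, 0.527, 0.266 and 0.397% of sham microglia and 34.8, 29.4, 37.2 and 25.6% of day 14 microglia, and in 0% of endothelial cells. Clec7a was found in 0.76 ± 0.184% and 26.7 ± 5.85% (SD, n = 4). Spp1 went from 0.0413 ± 0.0296% to 30.7 ± 12.6%, Lpl from 0.255 ± 0.038% to 14.8 ± 4.49% and Igf1 from 0.0765 ± 0.0923% to 10.7 ± 3.82%. The mean sham share was below 1% for each of these genes. Without thinning, the day 14 shares were 57.6% for Cst7, 48.9% for Spp1 and 35.7% for Lpl.

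Apoe was found in 15.8, 19.5, 11.3 and 15.5% of sham cells and 97.5, 92.2, 97 and 86.7% of day 14 cells. The sham share was not above that in endothelial cells (20.1% in sham and 25.2% at day 14), and the part of free RNA in either was not tested. Its log2 fold change rests on that sham level. Ctsb went from 46.5 ± 1.88% to 83.8 ± 4.41% and Trem2 from 37.2 ± 5.7% to 52.5 ± 5.75%. Without thinning the mean shares of Trem2 were 52.1% and 78.7%, which did not pass the exact permutation test (adjusted p = 0.074). P2ry12 was found in 61.7, 59.6, 57.4 and 58.8% of sham microglia and 20.0, 20.9, 24.9 and 29.5% of day 14 microglia, with 0% in endothelial cells. Tmem119 went from 31.6 ± 5.41% to 12.7 ± 2.97%, Cx3cr1 from 64.8 ± 7.85% to 40.9 ± 1.47% and Csf1r from 54.9 ± 6.3% to 31.8 ± 2.28%. These 4 identity genes thus had lower shares of thinned cells in all 4 day 14 libraries. Thinning fixes the total per cell, as library size scaling does, and makes no TMM correction. With library size scaling the median of all genes was −0.49 on the log2 scale. Tgfb1, whose level changed little in the fit, had mean shares of 5.23% and 4.31% after thinning, with overlap. The part of scaling in the lower shares of the 4 identity genes was not tested. Shares without thinning also depend on depth, with median counts per microglial cell of 330 to 648 in sham and 433 to 2042 at day 14. The part of depth in them was not tested. Without thinning none of the 4 differences of these identity genes passed the exact permutation test. The mean shares in sham and at day 14 were then 71.3% and 50.9% for P2ry12 (adjusted p = 0.074), 45.6% and 34.9% for Tmem119 (adjusted p = 0.32), 77.8% and 73.3% for Cx3cr1 (adjusted p = 0.64) and 70.5% and 67% for Csf1r (adjusted p = 0.8), each adjusted p from that exact permutation test. Interferon genes were counted in endothelial cells as well, for example Isg15 in 9.38% and Bst2 in 9.42% of them at day 14, against 6.74% and 15.6% of day 14 microglia, so that endothelial cells give no background for these genes.

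How the counts of a gene were divided among the day 14 microglia was read from the cells richest in it. After thinning, the 10% of cells richest in Spp1 held 60.2 to 86.8% of its counts per library. The same share was 44.1 to 56.2% for Cst7, 42.6 to 83.4% for Ccl4 and 23.9 to 31.5% for Apoe. For Ctsb it was 24.7 to 29.9%. A gene counted in few cells gives a high value by sampling alone, so these shares are not compared between genes of different level and do not by themselves show uneven expression.

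**Figure D4:**
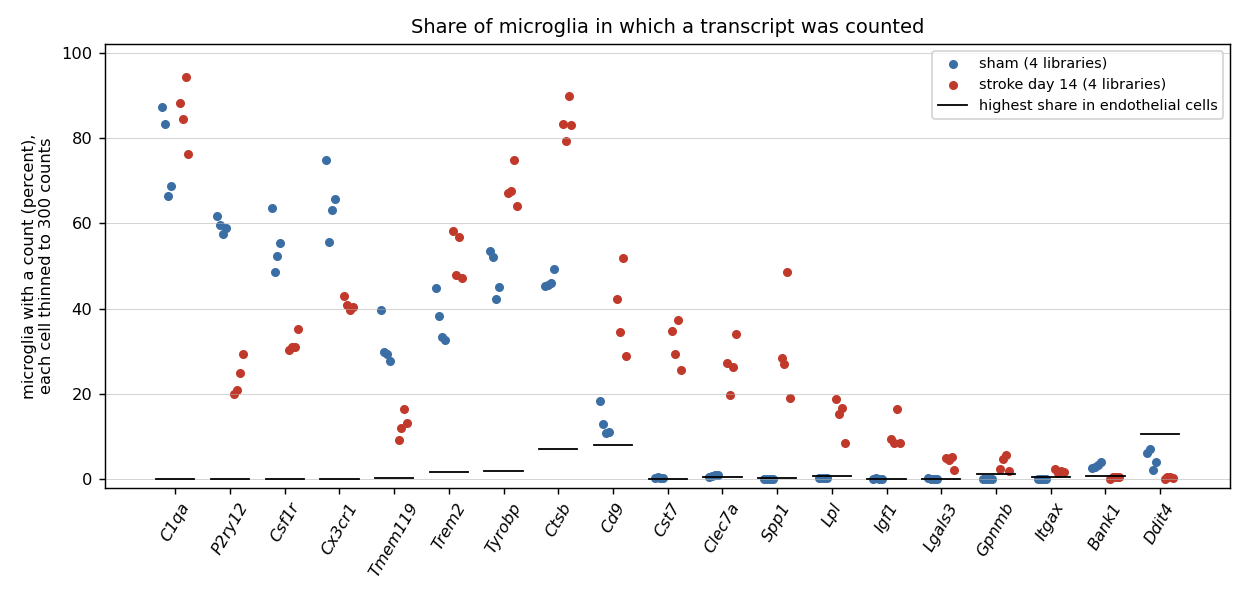
Share of microglia with at least 1 count of each of 19 genes, in percent, for each of 4 sham (blue) and 4 day 14 (red) libraries, with every cell thinned to 300 counts and a black line at the highest endothelial share in any of the 8 libraries. P2ry12, Csf1r, Cx3cr1 and Tmem119 are lower and Ctsb, Cst7, Clec7a, Spp1 and Lpl higher in all 4 day 14 libraries, while C1qa overlaps.

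The authors' subtypes of microglia, which were clustered on the same counts, differed in their shares between the groups. Subtypes Mg1 and Mg2 held 42.0 to 71.2% and 25.8 to 45.3% of sham microglia, and Mg3 held 0.287 to 1.21%. At day 14, Mg3 held 59.3 to 76.4%, Mg1 0.885 to 12.6% and Mg2 0.836 to 14.8%, the last highest in replicate 4. Mg6 was uneven in both groups, with 9.08 and 9.17% in sham replicates 2 and 3 and at most 0.387% in the other 2, and with 19.0 and 14.6% in day 14 replicates 1 and 4 and at most 2.34% in the other 2. These shares are a description, since the genes that changed also define the clusters. The summed level of the lipid-associated list, in counts scaled to a subtype's total without TMM, was 2825 to 3827 CPM in Mg1 of the sham libraries and 62559.9 to 109683 CPM in Mg3 of the day 14 libraries. Within Mg1 it was 8262 to 24761 CPM in the 3 day 14 libraries with at least 20 such cells, and within Mg3 12441 to 17786 CPM in the 2 sham libraries with that many. Apoe, a member of this list, was the most abundant gene of every day 14 library, at 3.56 to 7.23% of its microglial counts. It thus weighs most in the day 14 sums over all microglia. The interferon list summed to 1060 to 1356 CPM in sham Mg1, 1471 to 2358 CPM in day 14 Mg1, 5011 to 6108 CPM in sham Mg3 and 5487 to 7760.1 CPM in day 14 Mg3. Within Mg3, the interferon levels of the groups thus overlapped while the lipid-associated levels did not. In Mg1 alone 3 of 1691 genes were called, Spp1, Apoe and Ifi27l2a, all higher. Day 14 replicate 1 was left out there for its 8 cells. Of the 383 genes called over all microglia and tested in Mg1, 324 had the same sign. Mg1 cells are part of the sums over all microglia, so this count is not independent of those calls.

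Markers of other cell types were read in the same sums. The 12 monocyte-derived markers summed to 208 to 338 CPM in sham and 2559 to 3989.6 CPM at day 14, against 41651 unscaled CPM in the cells the authors class as monocyte-derived. Lyz2, the macrophage lysozyme, made up most of this, at 206 to 312 CPM in sham and 2522 to 3886 at day 14. The defining monocyte genes Ccr2, Ly6c2, Plac8 and Chil3 did not exceed 13.1, 34.3, 29.1 and 1.19 CPM in any day 14 library. They were at 1294, 2185, 2459 and 563 unscaled CPM in the monocyte-derived cells, and Vcan was at 0 in both groups as deposited. Of 7 tested markers Lyz2, Ms4a4c and Fn1 were called, all higher. With counts rounded up, 11 markers were tested and 8 were higher. The summed sham and day 14 counts of Ccr2 were 21 and 28 as deposited and 94 and 166 rounded up. Those of Ly6c2 were 2 and 77, then 22 and 193, and of Plac8 7 and 72, then 28 and 225. Chil3 had 6 and 2, then 34 and 21, and Vcan had 2 and 9 rounded up. Monocyte-derived cells of the 8 libraries had Spp1 at 15245 CPM and Gpnmb at 1999 CPM (unscaled), more than the day 14 microglia on average, and their part in those microglial levels was not tested. Among other cell types with at least 500 cells in the 8 libraries, Cst7 was highest in T cells (129 unscaled CPM), far below the day 14 microglia. Baiap2l2 reached 6.83 unscaled CPM at most in those types. Types with fewer cells, such as NK cells (411), were not read for these 2 genes. The 10 border macrophage markers summed to 36.8 to 47.9 CPM and 116 to 187 CPM (11858 unscaled CPM in border macrophages). Of 5 tested Pf4, Folr2 and Ms4a7 were called higher. With counts rounded up 7 were tested, 4 higher and 2 lower. Mrc1, the most abundant of the 10 in border macrophages, was at 20.4 to 34.5 CPM in sham and 0 to 21.3 at day 14. Ccl24 was at 8.5 to 14.8 and 1.65 to 5.52, and neither was called as deposited. Lyve1 and Cd163 were at 0 in sham as deposited (26 and 8 counts rounded up) and at most 3.16 and 1.14 CPM at day 14. The T and NK cell list summed to 2.96 to 11.2 CPM in sham and 3.16 to 49.9 CPM at day 14, with 0 of its 12 genes tested. With counts rounded up 5 of them were tested and 4 were higher. The neutrophil list summed to 0 to 94.4 CPM in sham and 0 to 25.7 CPM at day 14, with 0 of its 10 genes tested (rounded up, 4 tested and 4 lower). The endothelial list summed to 8.87 to 50.5 CPM and 0 to 83.3 CPM, with Cldn5 at 0 in both and Pecam1 called lower. The dendritic cell list summed to 174 to 331 CPM and 103 to 119 CPM (Fscn1 called lower) and the astrocyte list to 183 to 208 CPM and 63 to 127 CPM (Slc1a3 called lower), both lower in every day 14 library. The oligodendrocyte list summed to 115 to 168 CPM and 80.8 to 136 CPM (Mag called lower) and the B cell list to 183 to 275 CPM and 179.8 to 239 CPM (none called), which overlap. The part of these markers in the results was not tested.

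Day 2 stroke libraries share the same fit and the same sham libraries, so the values of the 2 times are given side by side and their own difference is tested. Against sham, 3182 genes were called at day 2 (31.4%), 1588 higher and 1594 lower. The number lower fell to 820, 852 and 940 without sham replicate 4, sham replicate 3 and day 2 replicate 1, where 1351, 1366 and 1501 were higher, and to 947 without day 2 replicate 4. Between day 14 and day 2, 703 genes were called (6.93%), 352 higher at day 14 (3.47%) and 351 lower (3.46%), and 735 were called without day 2 replicate 3. This count fell to 276 without day 2 replicate 4, 379 without day 2 replicate 1, 426 without day 14 replicate 1 and 440 without day 14 replicate 4. Of the lipid-associated members 20 of 33 were higher at day 14 than at day 2 and none was lower. Apoe was at 1939, 1785 and 859 CPM in day 2 replicates 1, 2 and 4, and its day 14 level was higher by 4.85 ± 0.58 on the log2 scale (adjusted p = 0.00054). This and the other differences between the times were fitted with all 4 day 2 libraries, and without replicate 3 that of Apoe was 5.44 ± 0.45. Cst7 was at 194, 209 and 310.5 CPM and Igf1 at 25.7, 42.8 and 29 CPM at day 2, so that both lay between sham and day 14 (differences 3.44 and 4.19). Spp1 was already at 8228, 8411 and 18929 CPM at day 2, and no difference from day 14 was called (log2 −0.27 ± 0.58).

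MHC class I members were higher at day 14 than at day 2 in 10 of 21. H2-D1 was at 781, 702 and 816 CPM at day 2, within the sham range, and B2m at 5085, 3683 and 5152 CPM. Interferon genes were called higher than sham in 26 of 35 members at day 2, and 15 members were called higher at day 14 than at day 2, 10 of them among the 26. The cell cycle list went the other way. At day 2, 26 of 28 members were above sham with a median of 5.71, and 24 were lower at day 14 than at day 2. Top2a was at 449, 317 and 316 CPM at day 2. The scavenger receptor Msr1 was at 270, 289.5 and 531 CPM at day 2 and 38.2, 34.5, 71 and 20.5 CPM at day 14, a difference of −3.23 ± 0.39 between the times. Trem2 was at 1592, 1419.6 and 1918 CPM at day 2, within or just above the sham range, and higher at day 14 by 1.33 (adjusted p = 0.035). Gbp7 was at 103, 127 and 45.1 CPM at day 2 and lower still at day 14, and Sult1a1, at 26.6, 46.1 and 48.3 CPM, was not called between the times (log2 difference −0.07 ± 0.38). Of the 45 named genes whose difference between the times was called, 42 were also called without day 2 replicate 3.

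**Figure D5:**
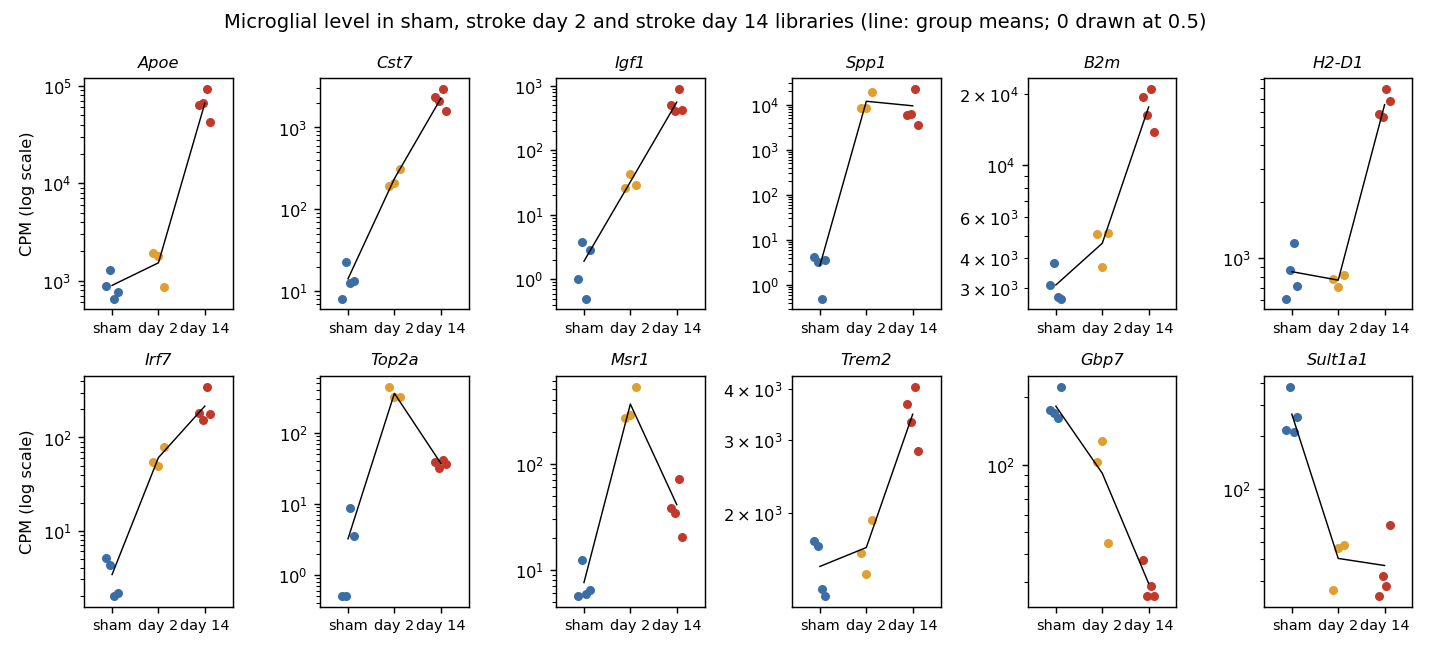
Level of 12 genes (CPM, log scale, 0 drawn at 0.5) in 4 sham, 3 day 2 and 4 day 14 libraries, with a line through the group means; day 2 replicate 3 (58 microglia) is left out. Apoe, H2-D1 and B2m rise mainly between day 2 and day 14, Spp1 is high at both times, and Top2a and Msr1 peak at day 2.

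Aged mice, 17 to 20 months old, gave 3 further libraries that share no sample with the young ones: 1 male and 1 female sham library at day 2 and 1 female stroke library at day 14. With 1 stroke library they allow no test, and sex and group are not balanced. Of the 1457 genes called in young microglia and present there, 1257 had the same sign against the mean of the aged shams (86.3%), beside 58.9% of the genes not called. The aged day 14 value lay beyond both aged shams in the young direction for 77.1% of called genes and 40.5% of the others. All 30 called lipid-associated members, 18 lysosomal members and 15 MHC class I members present had the young sign, as did the 30 called interferon members, Gbp7 included. Apoe was at 3261 and 3745 CPM in the male and female aged sham and 35388 CPM at day 14. Cst7 was at 34.8 and 75.8 CPM and then 1906 CPM. Spp1 was at 58.9 and 92.3 CPM and then 965 CPM. P2ry12 was at 3941 and 3539 CPM and then 1767 CPM. Of 6 called cell cycle members present 4 had the young sign, and Top2a was at 2.68 and 10.8 CPM in sham and 2.57 CPM at day 14. Ccl5 and Lag3, called and apart in young mice, also had the other sign against the mean of the aged shams, with the day 14 value between them. Ccl5 was at 259 and 9.62 CPM and then 94.2 CPM, and Lag3 at 88.3 and 28.9 CPM and then 48 CPM. Young and aged tables were normalised separately, so levels are compared within each only.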

How the data were processed

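Single-cell expression was measured by Drop-seq, and the deposited tables give expected counts (fractional values, no normalisation) per gene and cell; why they are fractional is not given in the sources used here. The authors' deposited cell tables give each cell's class, subtype, total counts and mitochondrial percent. Per the submitters' processing notes, Seurat and the mm10 build were used. Here the expected counts of microglia were summed per library, and the sums were rounded to whole numbers. Genes were kept by filterByExpr, normalised by TMM and tested in edgeR 4.0.16 (R 4.3.3) with the quasi-likelihood test over 12 young brain libraries in 3 groups (sham, stroke day 2, stroke day 14), and called at an adjusted p under 0.05. The code was tested on simulated data. DESeq2 1.42.0 was an alternative. Standard errors are the log2 fold change divided by the square root of the F statistic. Shares of cells were tested by an exact permutation test (scipy 1.17.1) after thinning to 300 counts. Intervals of count ratios and floors of 3 counts cover counting error only, and counts are not independent of the droplet chemistry. Scrublet (scanpy 1.11.5) marked 13 cells in the 12 libraries and has not worked, so no doublets were removed.

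Named genes are called genes at both ends of the log2 fold change, 12 per direction (mean of at least 20 CPM, libraries apart, no other cell type at over 10 times the level, no predicted, mitochondrial, ribosomal, haemoglobin or receptor genes), up to 5 called members per list at 20 CPM or more, and a fixed set; other list members are named only to say which were called. The comparison, the 22 gene lists and the 13 marker lists were chosen with earlier results of these data known. Values of a few list members are not reported here. Same-numbered libraries of different groups deviated together with correlations from −0.29 to 0.55, so the numbers only name libraries.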

Additional observations from a re-analysis of the deposited data

Results flagged for a closer look

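Within a group of 4 libraries, 1 library lay apart from the other 3 by more than Dixon's 95% limit for 16 of the 208 groups examined (7.69%), each a named gene in sham or day 14 with a library at 20 CPM or more. Chance gives about 1 in 20 for independent groups of normally distributed values. The groups examined reuse the same libraries, so their share is a description and is not compared with it. At day 14 the libraries past the limit were the highest of Spp1 (22251 CPM), Apoc4 (198 CPM), Cd63 (3473 CPM), P2rx4 (239 CPM) and Irf7 (352 CPM), all in replicate 3. Rsad2 (157 CPM), Cxcl2 (450.4 CPM) and Abca1 (341 CPM) were highest in replicate 1, and Itgax was lowest in replicate 4 (71.8 CPM). In sham, replicate 1 was highest for Slc2a5 (221 CPM), Itgb2 (181 CPM), Tle3 (68.4 CPM), Lag3 (77.6 CPM), Sall1 (256 CPM) and Ifitm3 (26.5 CPM). Replicate 4 was lowest for Tlr2 (34.7 CPM). Sham replicate 1 is the 1 sham library with a highest mitochondrial share under 10%.

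The stroke libraries of day 14 and day 2 differed in 45 of 128 named genes, beside 703 of all 10145 (6.93%), by edgeR's quasi-likelihood test of the difference itself, given here on the log2 scale. The named genes were chosen in part for their change at day 14 against sham, which shares the day 14 libraries. Higher at day 14 were Apoc4 (8.01), Baiap2l2 (7.21), Apoc1 (6.66), Actr3b (5.54), Apoe (4.85), Gpnmb (4.22), Igf1 (4.19), Cst7 (3.44), Axl (3.20), Itgax (3.14), Fabp3 (3.11), Clec7a (2.87), Csf1 (2.62), Fabp5 (1.43) and Trem2 (1.33). Cxcl13 was called higher too, with a fitted value of 9.27. It was at 0 in sham, and without day 2 replicate 3 its log2 fold change of day 2 against sham was also 0. Its day 2 level was thus at 0 there, so the 9.27 is not a measured ratio and only its direction is read. The interferon and MHC genes H2-Q7 (4.13), H2-Q6 (4.0), H2-D1 (2.96), H2-K1 (2.62), Slfn5 (2.18), B2m (1.92), Oasl2 (1.89), H2-Ob (1.83), Irf7 (1.73), Rsad2 (1.65) and Tap1 (1.43) were also higher. So were C3 (8.27), Maff (2.85), C4b (2.81), Lag3 (2.71), Ccl5 (2.46), Cxcl14 (1.85), Npc2 (1.36) and Hif1a (1.29). Without day 2 replicate 3, the fitted day 2 level of C3 was below its sham level, which is near the floor. The size of its 8.27 is therefore uncertain. Lower at day 14 than at day 2 were Msr1 (−3.23), Top2a (−3.11), Mki67 (−2.94), Bank1 (−2.02), Siglece (−1.89), Serpinf1 (−1.84), Ccl2 (−1.59), Gbp7 (−1.50), Rtn1 (−1.47) and Pkm (−0.99). The differences of Tap1, Pkm and Ccl2 were not called without day 2 replicate 3, which moved the difference by over 1.5 times for Clec7a (3.73 without it) and Apoe (5.44).

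Top2a, higher in every young day 14 library, was at 2.57 CPM in the aged day 14 library, against 2.68 and 10.8 CPM in the male and female aged sham. The male sham library holds 361891 microglial counts, so its value and this order are near the floor. That difference between ages was not tested.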

How the results depend on the processing

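The 1544 genes called (1071 higher, 473 lower) ranged from 791 to 2573 when 1 library was left out, the higher ones from 621 to 1681 and the lower ones from 170 to 892. Library size scaling gave 3425 (670 higher, 2755 lower). DESeq2, whose scaling puts the median of all genes at −0.19, called 1986, with 841 lower. The largest subtype alone gave 3 (3 higher, 0 lower; 111 at an unadjusted p under 0.05), where fewer cells and genes were tested and day 14 replicate 1 was dropped. The low-mitochondrial libraries alone gave 90 (87 higher, 3 lower) and the high-mitochondrial ones 1110, with 253 lower; both were chosen after seeing the data. The other settings kept all 3 counts within 1.5 times: no filter on low counts, the compared groups alone, rounding up, cells of at least 500 counts, Scrublet, the mitochondrial set as a term and 3 further settings chosen after seeing the data. The sign of every called gene tested, called on the same libraries, was kept in each setting except the largest subtype and the high-mitochondrial libraries (1478 of 1483). In the largest subtype Slc2a5 (0.52), Itgb2 (−0.44), C3ar1 (−0.16), Entpd1 (0.087) and Aldoa (−0.11) had the other sign on the log2 scale, none called there. The cause of these changes was not tested beyond what each setting leaves out.

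With the replicate number as a block 1666 genes were called (1151 higher, 515 lower), and without day 2 replicate 3 and with the block 1745. The labels do not say that numbers pair libraries, and sham and day 14 libraries of number 2 or 3 deviated in opposite ways (correlations −0.19 and −0.21). Of 109 named genes called, 6 were lost with the block.

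For the comparisons with day 2, leaving out 1 library gave 2094 to 3524 called for day 2 against sham (3182 with all) and 276 to 735 for day 14 against day 2 (703 with all). Of 75 shares of cells 58 passed at 300 counts, 58 at 450 counts and 52 without thinning, and 58 to 62 had groups apart when 1 library was left out. Depth limits genes with few counts in sham, where values at or near 0 depend on the fractional counts.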
